A study of Mus musculus with 6 samples.

Results

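Neoplastic cells sorted from mouse lung tumors were compared by which transcript of the Lkb1 locus (gene symbol Stk11) each cell carried. The comparison was confined to cells with a high level of Sftpc, the surfactant protein C gene that marks alveolar type II (ATII) cells. LKB1 is a serine/threonine kinase and tumor suppressor that phosphorylates and activates AMPK and its related kinases, including the salt-inducible kinases, which in turn hold back the CRTC coactivators of the transcription factor CREB. ATII cells make and secrete surfactant and can become flat, gas-exchanging alveolar type I (ATI) cells, passing through an intermediate state rich in keratins. In the Lkb1 XTR allele, the first intron holds a gene trap with a splice acceptor followed by the coding sequence of green fluorescent protein (GFP). Cre turns the trap into the orientation that truncates the Lkb1 transcript, and the recombinase FLPo-ERT2, once activated by tamoxifen, deletes it. A GFP read in a cell therefore marks a trapped allele, and a Stk11 read marks a transcript that continued beyond the trap.

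The cells came from 6 mice carrying Lkb1 XTR/XTR and Rosa26 LSL-tdTomato, with tumors initiated by Lenti-Cre delivered into the trachea, allowed to develop for 20 weeks, and were treated over the 2 weeks before harvest. Of these mice, 3 were labelled Restored (Rosa26 LSL-tdTomato/FLPo-ERT2, tamoxifen in 4 mg doses; 2 male, 1 female) and 3 NonRestored. The NonRestored mice were 1 male given tamoxifen and 1 male given vehicle, both without FLPo-ERT2, and 1 female with FLPo-ERT2 given vehicle. By the age range in the methods, the mice were young adults at tumor initiation. Dissociated cells positive for CD45, CD31, F4/80 or Ter119 and dead cells were sorted away, and the study describes the sorted cells as positive for tdTomato. They were profiled with the Chromium 3′ kit, in which each captured transcript carries a unique molecular identifier (UMI). The matrix pooled all libraries without naming the mouse of a cell, so it was treated as 1 sample. The mouse, its group, its treatment and the transcript class of a cell cannot be told apart, no test between the mice was possible, and every 95% interval below covers counting error only.

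The members were chosen by fixed limits on the counts of each cell. They had at least 500 detected genes, at most 20% mitochondrial UMIs and at least 1 TdTomato UMI, and per 10000 UMIs at least 500 of Sftpc, under 2 of Hopx (an ATI gene) and under 50 of Krt8 and Krt18 together (keratins of the intermediate state). Of 16017 cells, 13936 had enough genes, 12183 of these also passed the mitochondrial limit, 12092 of these had TdTomato, and 6974 met every limit. Among the 6974, 1742 held GFP and no Stk11 (here trap cells), 2353 held Stk11 and no GFP (here Stk11 cells), 15 held both and 2864 held neither. Cells of each class were then drawn in equal numbers from narrow bins of UMI total, which left 1714 trap cells with 46457224 UMIs and 1714 Stk11 cells with 46435009 UMIs. Their median totals were 25419.5 and 25471.5 UMIs per cell, with ranges of 2785 to 79660 and 2756 to 81044.

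The name of the population was checked against markers. All 22 listed ATII markers other than Sftpc reached a mean of 10 CPM (UMIs of a gene per 1000000 UMIs) over both classes, and together they made up 71957 CPM in trap cells and 89696 CPM in Stk11 cells. Reaching 10 CPM does not by itself set ATII cells apart. ATI markers summed to 2849 and 1993 CPM, with Ager at 1047 and 701 CPM and Aqp5 at 1052 and 722 CPM. Markers of the keratin-rich intermediate state summed to 1455 and 929 CPM. Markers of cell types that the sort should remove or that were not epithelial stayed low. The 12 immune markers summed to 6.76 CPM in trap cells and 5.17 CPM in Stk11 cells, with 2 and 4 of them at 0. Endothelial markers summed to 19.6 and 16.8 CPM, and fibroblast markers to 17.7 and 39.1 CPM. The fibroblast sum rested largely on matrix Gla protein (Mgp), described below.

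Both transcripts start at the Stk11 promoter, so 1 regulatory sequence feeds both readouts. RefSeq places it on the plus strand of chromosome 10 in GRCm38.p6 at chr10:80115545-80115844, 250 bases before to 50 after the start. It is 61.3% G and C and holds neither TATAAA nor TTGCNNAA nor TGACGTCA on either strand:
Stk11: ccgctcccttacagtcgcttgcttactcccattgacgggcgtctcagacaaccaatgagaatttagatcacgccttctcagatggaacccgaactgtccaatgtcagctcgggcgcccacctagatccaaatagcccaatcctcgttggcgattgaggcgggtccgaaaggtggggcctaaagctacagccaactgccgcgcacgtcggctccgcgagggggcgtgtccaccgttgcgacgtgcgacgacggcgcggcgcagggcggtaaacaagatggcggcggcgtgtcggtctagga
The annotated gene body of Stk11 (GENCODE M21, GRCm38) is the region that the 3′ reads of an untrapped transcript come from, whereas GFP and TdTomato were added features without a genomic position.

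Trap and Stk11 transcripts were rarely found in the same cell. Of the 6974 Sftpc-high cells, 24.98% were trap cells (exact binomial 95% interval 24.0 to 26.0), 33.7% were Stk11 cells (32.6 to 34.9), 0.215% held both (0.120 to 0.355) and 41.1% held neither (39.9 to 42.2). Cells with neither transcript were shallower, with a median of 16259.5 UMIs against 25472.5 in all trap cells and 25078 in all Stk11 cells, so a missing UMI does not show that a transcript was absent. After thinning each of the 6772 members that had 5000 UMIs to that number, which left out 202 shallower cells, 8.96% were trap cells, 11.2% Stk11 cells and 79.8% held neither. Of 91 cells without TdTomato UMIs, which the sort should have removed, 0 held GFP, which allows a share of up to 3.30%. In these, 9 held Stk11 (9.89%, 4.62 to 17.9) at a median of 11487 UMIs, and the other 82 had a median of 2425.5 UMIs, so they say little about GFP background at the depth of the members. In 365 cells with stromal or immune markers and neither Epcam nor Nkx2-1, 2 held GFP (0.548%) at a median of 20068 UMIs and 70 held Stk11 (19.2%).

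Among cells with exactly 1 kind of transcript, trap cells were the minority in the Sftpc-high population and the majority in the populations next to it. They made up 42.5% of 4095 Sftpc-high cells (41.0 to 44.1). In the 620 TdTomato cells past the keratin limit and under the Hopx limit, they made up 81.7% of 426 (77.7 to 85.2). The 3282 TdTomato cells past the Hopx limit lay between, with 57.9% of 1838 (55.6 to 60.2). The 3 intervals did not overlap, but they do not cover the spread between mice, and the keratins that set 1 of the limits also differed between the classes within the Sftpc-high cells.

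**Figure D1:**
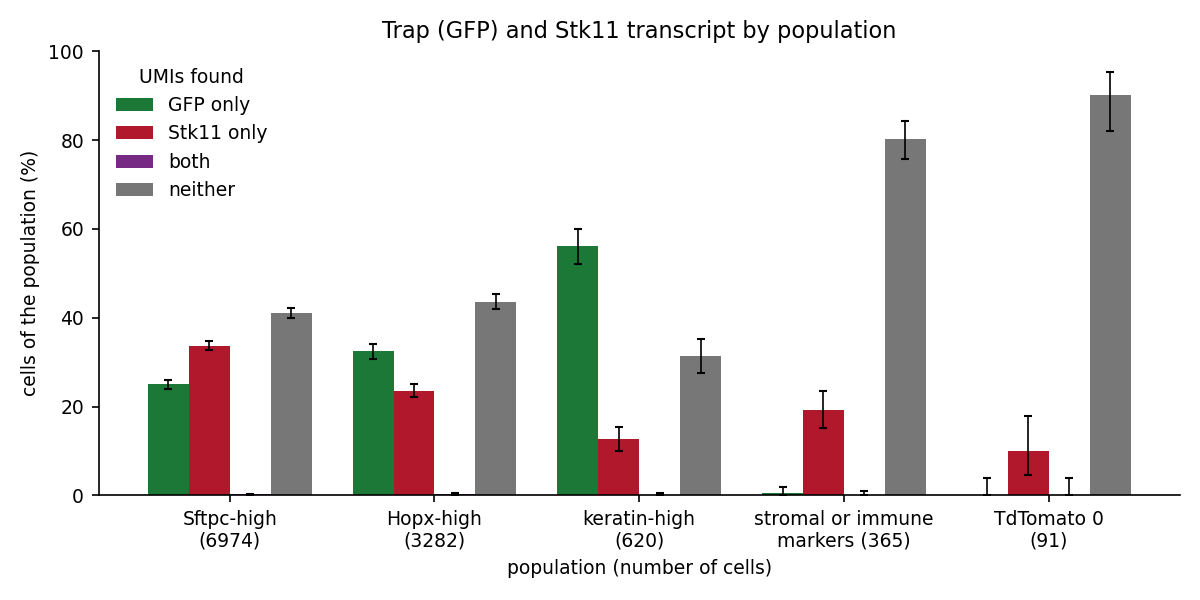
Share of cells (%) with GFP UMIs only, Stk11 UMIs only, both or neither in 5 populations, with exact binomial 95% intervals and the number of cells under each name. Trap cells are fewer than Stk11 cells in the Sftpc-high population (24.98% against 33.7%), more numerous in the keratin-high cells, and 2 of 365 cells where stromal or immune markers are present; 0 of the 91 TdTomato 0 cells held GFP, most of them at low depth.

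The values just inside and outside the limits changed gradually. Between 450 and 500 Sftpc UMIs per 10000, 82 cells met the other limits and held 26 trap and 7 Stk11 cells, and between 500 and 550 the corresponding numbers were 76, 25 and 10. Just below the keratin limit, 28 cells held 13 trap and 3 Stk11 cells, and just above it 27 cells held 15 and 2. Just below the Hopx limit, 366 cells held 75 trap and 137 Stk11 cells, and just above it 207 cells held 44 and 78. For the transcripts themselves, 860 of the 1742 trap cells held a single GFP UMI and 1325 of the 2353 Stk11 cells a single Stk11 UMI, and the highest numbers in a member were 11 and 9.

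The genes that chose the cells still differed between the matched classes, which is a description and not a result. Sftpc took 13.6% of the UMIs of trap cells and 17.2% of those of Stk11 cells, with medians of 1338 and 1742 per 10000. Krt8 stood at 695 CPM in trap cells and 357 CPM in Stk11 cells, Krt18 at 760 and 456 CPM, and Hopx at 35.02 and 38.8 CPM. TdTomato stood at 9011 CPM in trap cells and 4976 CPM in Stk11 cells, where the labels give the reporter allele opposite FLPo-ERT2 in 4 of the 6 mice; the part of that genotype was not tested. Trap cells had a median of 4740.5 detected genes and 3.81% mitochondrial UMIs, and Stk11 cells 4510 genes and 3.93%. Both classes held cells of both sexes. UMIs of Y-linked genes without Xist were found in 53.6% of trap and 51.1% of Stk11 cells, and Xist without Y-linked UMIs in 38.6% and 41.0%.

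Across 7419 features with a mean of at least 10 CPM, outside the genes of the rule and the mitochondrial genes, 382 were at least 1.5-fold higher in trap cells, which is 5.15% of those tested. In the other direction, 105 were at least 1.5-fold higher in Stk11 cells, or 1.42%. Past 2-fold, the numbers were 111 and 31. The median gene had a log2 ratio of Stk11 over trap cells of -0.18. With Sftpc left out of the UMI totals it was -0.12, with 324 genes higher in trap cells and 144 in Stk11 cells. Measured relative to that median, 215 genes were higher in trap cells and 199 in Stk11 cells, so the share of calls that were higher in Stk11 cells moved from 21.6% to 48.1%. The excess of genes higher in trap cells therefore depended on the scaling, and the gene lists below are given beside the median of all genes, with their counts relative to it where those differ. Each count of list members stands against 5.15% of all genes higher in trap cells and 1.42% higher in Stk11 cells, or 215 and 199 of 7419 relative to the median gene.

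**Figure D2:**
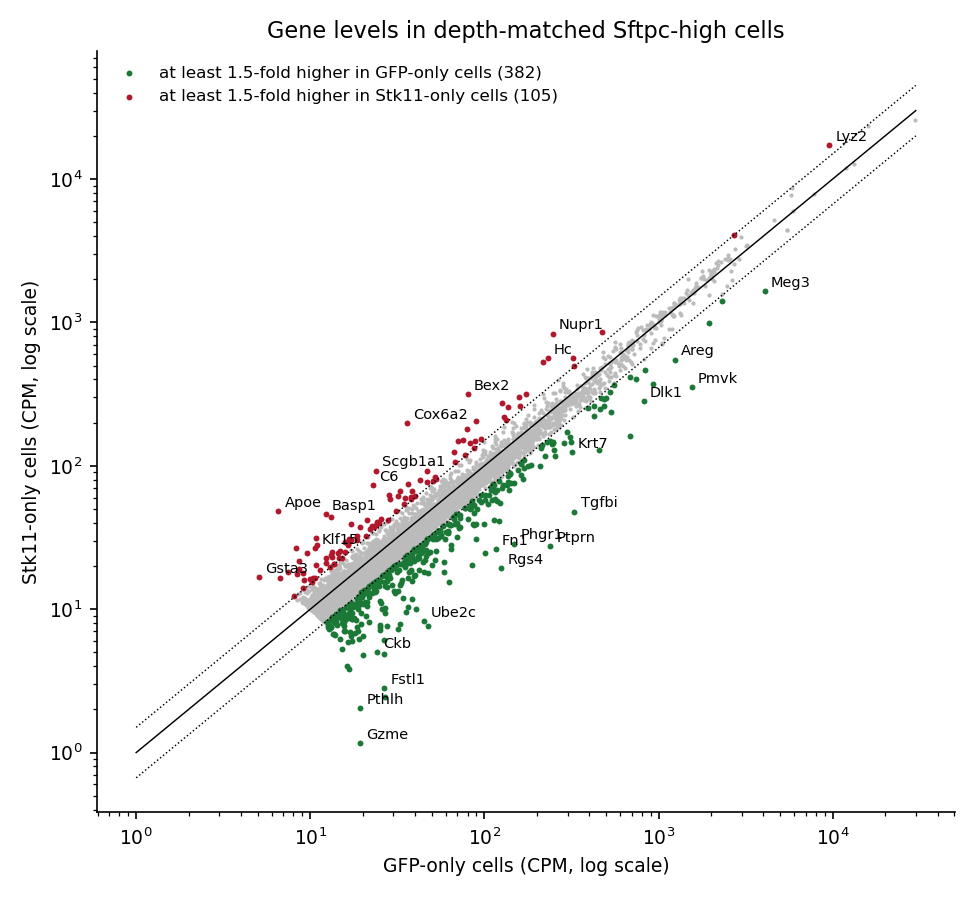
CPM of each of the 7419 features in 1714 trap cells (x axis) and 1714 Stk11 cells (y axis), both on log scales, with the line of equality and dotted lines at 1.5-fold. The 382 features higher in trap cells are green and the 105 higher in Stk11 cells red; Gzme lies farthest below the line and Apoe farthest above it.

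ATII genes lay mostly above the median gene, and few were past 1.5-fold. Of 22 tested, 2 were at least 1.5-fold higher in Stk11 cells (1.42% of all genes), 1 was at least 1.5-fold higher in trap cells (5.15%) and 19 were within 1.5-fold, with a median log2 ratio of 0.09 against -0.18 over all genes, and 19 of the 22 lay above that median. Relative to it, 4 were past 1.5-fold in favor of Stk11 cells, Sftpa1 and Cxcl15 in addition to Lyz2 and Hc, and 0 in favor of trap cells. Lyz2, the lysozyme gene expressed in mature ATII cells, stood at 9583 CPM in trap cells and 17218 CPM in Stk11 cells, 1.80-fold higher (1.79 to 1.80). In Xist-bearing cells Lyz2 was under 1.5-fold, at 10840 and 15400 CPM (log2 0.51, against 0.98 in Y-bearing cells). The median trap cell had 5564 CPM of Lyz2 (10th to 90th percentile 52.9 to 22668) and the median Stk11 cell 14551 CPM (1752 to 32331), so the classes overlapped over most of their range. Hc, complement component C5, which ATII cells also make, stood at 231 and 562 CPM, 2.44-fold higher in Stk11 cells (2.38 to 2.49), with per-cell medians of 154 and 501 CPM. Egfl6, a secreted matrix-binding protein, went the other way, at 468 CPM in trap cells and 299 CPM in Stk11 cells (1.57-fold higher in trap cells, 1.533 to 1.6001). Egfl6 was under 1.5-fold in Y-bearing cells (log2 -0.32) and past it in Xist-bearing cells (-1.16). Other surfactant and lamellar body genes lay within 1.5-fold: log2 ratios were 0.55 for Sftpa1, 0.01 for Sftpb, -0.32 for Sftpd, -0.10 for Lamp3 and 0.11 for Abca3. Cxcl15, a secreted lung chemokine, had a log2 ratio of 0.57.

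The largest ratios in favor of Stk11 cells belonged to genes of several kinds. Apoe, the lipid-carrying apolipoprotein E, stood at 6.57 CPM in trap cells and 48.4 CPM in Stk11 cells, 7.37-fold higher (6.54 to 8.34). It stood at 3844 CPM in the stromal or immune marker cells, and the 10 richest cells held 37.4% of its UMIs in trap cells and 22.3% in Stk11 cells. With at least 2 UMIs of the transcript in each cell, the log2 ratio of Apoe was 3.77 against 2.88 here. The part of RNA from such cells in its ratio was not tested. Cox6a2, the heart and muscle isoform of a cytochrome c oxidase subunit, stood at 35.9 and 198 CPM (5.51-fold, 5.23 to 5.81). It was the only one of 74 tested nuclear respiratory chain genes past 1.5-fold in this direction, and none was past it in the other, with a list median of -0.13. The median trap cell held no Cox6a2 UMI, the median Stk11 cell had 98.5 CPM, and 11.5% and 43.5% of cells held one after thinning to 5000 UMIs, against 0 of 257 stromal or immune marker cells.

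Nupr1, a small chromatin protein induced by stress, differed over most of the range of the cells. It stood at 247 CPM in trap cells and 836 CPM in Stk11 cells (3.39-fold, 3.32 to 3.47), with per-cell medians of 115 and 636 CPM. The 90th percentile of the trap cells, 637 CPM, lay at the median of the Stk11 cells, and the stromal or immune marker cells stood at 658 CPM. Bex2 and Bex4, neighbouring members of the brain-expressed X-linked family, stood at 80.1 against 315 CPM (3.94-fold, 3.80 to 4.08) and 13.2 against 43.9 CPM (3.34-fold, 3.05 to 3.66). Both lie on the X chromosome, Bex2 at chrX:136066564-136068236 and Bex4 at chrX:136138996-136140443 (GENCODE M21, GRCm38). They were higher in Stk11 cells among Y-bearing cells (log2 2.37 and 1.75) and among Xist-bearing cells (1.49 and 1.56).

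Several other genes of this group had smaller ratios than Bex4. C6, which encodes a component of the complement membrane attack complex, stood at 22.9 CPM in trap cells and 73.6 CPM in Stk11 cells (3.21-fold). Gsta3, a glutathione transferase, stood at 5.06 and 16.8 CPM, and Kcnk2, a potassium channel, at 8.27 and 26.7 CPM. Limch1, a regulator of actomyosin, and St6galnac2, a sialyltransferase, were 2.88-fold and 2.59-fold higher in Stk11 cells. Of the 3 complement genes tested, Hc and C6 were past 1.5-fold, and C3, at 73.0 and 65.2 CPM, was not.

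Some genes in this direction had many of their UMIs in few cells, and for Mgp this set the ratio. For Mgp, a calcification inhibitor made by mesenchymal cells, 1 Stk11 cell held 1136 of the 1306 UMIs of its class, and the next held 20. Its ratio of 2.56 in favor of Stk11 cells is therefore the content of 1 cell, and its level in the stromal or immune marker cells was 25441 CPM. Scgb1a1, the secretoglobin of club cells, stood at 23.7 and 92.6 CPM, and the 10 richest cells held 53.3% of its UMIs in trap cells and 34.8% in Stk11 cells. A Scgb1a1 UMI was found in 255 trap and 724 Stk11 cells, and after thinning in 4.62% and 17.8%. Outside both classes, 1 cell with neither transcript held 3157 UMIs, which enter neither level. Cyp2f2, the other club cell marker tested, stood at 36.6 and 38.9 CPM. Basp1, a membrane-bound signaling protein, stood at 12.2 and 46.3 CPM with 18.0% of the Stk11 cells' UMIs in their 10 richest cells. After thinning, 3.28% of trap and 9.60% of Stk11 cells held a Basp1 UMI. Basp1 stood at 262 CPM in the stromal or immune marker cells and turned direction between the sexes (below).

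The largest ratios in favor of trap cells at levels over 100 CPM included Ptprn, Tgfbi and Rgs4. Ptprn, a protein of dense-core secretory vesicles, stood at 239 CPM in trap cells and 27.7 CPM in Stk11 cells, 8.64-fold higher (8.15 to 9.16). Per cell, the median trap cell had 147 CPM, the median Stk11 cell had none, and after thinning 50.1% of trap cells and 8.54% of Stk11 cells held one (1.17% of stromal or immune marker cells). Tgfbi, a secreted matrix protein induced by TGF-beta, stood at 328 and 47.9 CPM (6.85-fold, 6.55 to 7.16). The 10th to 90th percentile of Tgfbi ran from 56.3 to 651 CPM in trap cells and from 0 to 119 CPM in Stk11 cells, and 70.5% and 16.0% of thinned cells held a UMI, against 18.7% of stromal or immune marker cells. Those marker cells stood at 114 CPM of Tgfbi, above the Stk11 cells, so their share is no measure of background. Before thinning, 94.2% of trap cells and 44.3% of Stk11 cells held a Tgfbi UMI. Rgs4, an inhibitor of G protein signaling, stood at 125 and 19.4 CPM (6.43-fold, 5.997 to 6.91). Its log2 ratio was -1.74 in Y-bearing and -4.04 in Xist-bearing cells.

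Several less abundant genes had larger or similar ratios. Rbm24, an RNA-binding protein known from muscle, stood at 26.8 and 2.43 CPM (11.0-fold, 9.08 to 13.5). Pthlh, the parathyroid hormone-like hormone, stood at 19.4 and 2.05 CPM, and Fstl1, a secreted glycoprotein, at 26.7 and 2.82 CPM. Ckb, brain-type creatine kinase, stood at 24.2 and 4.996 CPM. Of these genes, Fstl1 and Ckb were also high in the stromal or immune marker cells, at 790 and 461 CPM, whereas Rbm24 stood there at 0.186 CPM and Pthlh at 6.88 CPM. Phgr1 stood at 148 and 28.7 CPM (5.17-fold), with log2 ratios of -2.11 in Y-bearing and -4.19 in Xist-bearing cells. Its 10 richest cells held 18.1% of its UMIs in trap cells and 51.4% in Stk11 cells. For Pthlh these shares were 20.4% and 47.4%. Gzme, a granzyme whose close paralogs can share reads, had the largest ratio (16.5, 12.6 to 22.2) at 19.2 and 1.16 CPM, but 10 trap cells held 48.7% of its UMIs in their class, and all 54 UMIs of the Stk11 class were in 9 cells.

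Levels were also set out by the number of UMIs of either transcript, over all members and without matching. With 4 or more, 3, 2 and 1 GFP UMIs, Tgfbi stood at 334, 314, 336 and 322 CPM, in cells with neither transcript at 140 CPM, and with 1, 2, 3 and 4 or more Stk11 UMIs at 45.5, 54.4, 62.5 and 54.2 CPM. For Nupr1 the corresponding levels were 224, 283, 241 and 247 CPM, then 635 CPM, then 833, 852, 762.1 and 803 CPM. Cox6a2 ran at 35.7, 39.5, 38.5 and 32.6 CPM, then 114 CPM, then 192, 207, 215 and 202 CPM. For these genes the cells with a single UMI of a transcript were close to those with more, and cells with neither lay between. Pmvk did change within the trap cells, from 1343 CPM with 1 GFP UMI to 2056 CPM with 4 or more, and Hc changed within the Stk11 cells, from 609 CPM with 1 Stk11 UMI to 373 CPM with 4 or more. Apoe changed on both sides, from 8.29 CPM with 1 GFP UMI to 4.68 CPM with 4 or more, and from 54.6 CPM with 1 Stk11 UMI to 92.0 CPM with 4 or more. The median UMI total per cell also differed along this order, from 38651 with 4 or more GFP UMIs to 22033 with 1, and from 22432 with 1 Stk11 UMI to 35260 with 4 or more.

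**Figure D3:**
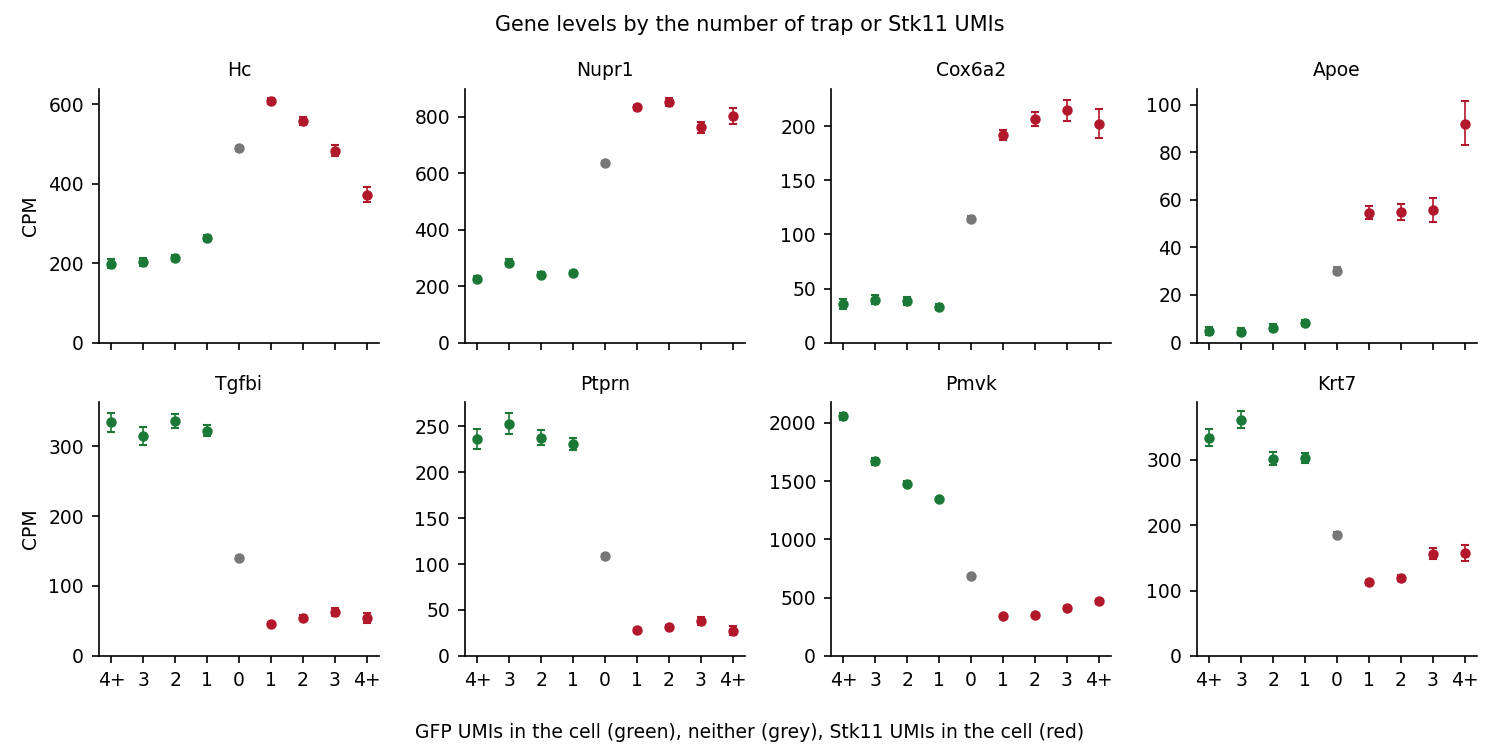
CPM of 8 genes in cells grouped by their number of GFP UMIs (green, 4 or more to 1), in cells with neither transcript (grey) and by their number of Stk11 UMIs (red, 1 to 4 or more), with exact Poisson 95% intervals. Tgfbi and Ptprn sit high in every green group and low in every red group, Cox6a2 and Nupr1 the reverse, and the grey point of these 4 genes lies between; for Hc it lies above the red groups with 3 and 4 or more UMIs.

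The promoters of the genes in each direction were searched for short motifs. RefSeq promoters (GRCm38.p6) matched 78 of the 105 genes higher in Stk11 cells, 287 of the 382 higher in trap cells and 5918 of all 7419 tested. The motif TTGCNNAA, a form of the site that C/EBP factors bind, was found on either strand in 17.9% of the 78, 8.36% of the 287, 9.85% of the 5918 and 12.2% of all promoters in the table. TATAAA was found in 17.9%, 9.41%, 8.21% and 15.7% of the same sets. The cAMP response element TGACGTCA was found in 0 of the 78, 6 of the 287 (2.09%), 3.92% of the 5918 and 2.03% of all promoters. These letters are a description of the window from 250 bases before to 50 after a start. Among the 24 genes with the largest ratios, those whose only listed promoter held TTGCNNAA were Bex2 and Gsta3, higher in Stk11 cells, and Rgs4, higher in trap cells. Their promoters are shown with both TTGCNNAA and TATAAA matches in capitals, for Bex2 on the minus strand at chrX:136068187-136068486, for Gsta3 on the plus strand at chr1:21240335-21240634 and for Rgs4 on the minus strand at chr1:169747593-169747892:
Bex2: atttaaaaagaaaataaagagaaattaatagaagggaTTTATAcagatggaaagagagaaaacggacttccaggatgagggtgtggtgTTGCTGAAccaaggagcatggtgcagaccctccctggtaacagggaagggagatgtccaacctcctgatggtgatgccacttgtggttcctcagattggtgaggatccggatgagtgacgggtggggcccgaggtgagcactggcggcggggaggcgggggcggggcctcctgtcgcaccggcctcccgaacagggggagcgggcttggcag
Gsta3: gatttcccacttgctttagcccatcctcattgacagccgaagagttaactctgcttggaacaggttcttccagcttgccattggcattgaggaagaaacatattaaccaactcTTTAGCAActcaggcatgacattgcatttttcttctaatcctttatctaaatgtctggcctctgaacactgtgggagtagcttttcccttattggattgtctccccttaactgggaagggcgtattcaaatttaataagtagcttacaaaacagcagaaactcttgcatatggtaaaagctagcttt
Rgs4: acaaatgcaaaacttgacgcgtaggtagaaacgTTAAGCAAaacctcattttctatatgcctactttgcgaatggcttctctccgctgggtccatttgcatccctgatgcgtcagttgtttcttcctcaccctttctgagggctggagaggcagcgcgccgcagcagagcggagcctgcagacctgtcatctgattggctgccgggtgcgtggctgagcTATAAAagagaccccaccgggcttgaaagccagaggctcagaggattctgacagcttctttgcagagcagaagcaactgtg

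C/EBP factors themselves stayed within 1.5-fold, with 0 of 5 tested past it in either direction and a median log2 ratio of 0.02. Relative to the median gene, 2 were past it in favor of Stk11 cells, Cebpd and Ddit3. Cebpa, which maintains ATII identity, stood at 423 CPM in trap cells and 342 CPM in Stk11 cells, with per-cell medians of 394 and 320 CPM. Cebpd stood at 220 and 297 CPM, 1.35-fold higher in Stk11 cells (1.31 to 1.38). Of the lung lineage and progenitor factors, 2 of 9 were past 1.5-fold, both higher in trap cells (5.15% of all genes), and 0 of 9 relative to the median gene. Sox4 stood at 238 and 149 CPM (1.595-fold, 1.55 to 1.64), and Sox9, a factor of the distal lung bud, at 17.1 and 11.1 CPM (1.54-fold, 1.38 to 1.73), although Sox9 turned direction between the sexes. Nkx2-1 had a log2 ratio of -0.36.

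The 3 tested partners of LKB1 in its complex and the 3 tested AMPK regulatory subunits were all within 1.5-fold, with median log2 ratios of -0.14 and -0.22. Of 7 tested kinases downstream of LKB1, Sik3 was past 1.5-fold, at 23.4 CPM in trap cells and 14.1 CPM in Stk11 cells (1.65-fold, 1.4997 to 1.82), but not relative to the median gene, and the list median was -0.35. Of 14 tested CRTC coactivators and CREB-responsive genes, 6 were at least 1.5-fold higher in trap cells (against 5.15% of all genes) and 0 in Stk11 cells, with a median of -0.48. Relative to the median gene 3 of 14 were, Areg, Pde4b and Nr4a1. Areg, the EGF receptor ligand amphiregulin, stood at 1241 CPM in trap cells and 551 CPM in Stk11 cells (2.25-fold, 2.22 to 2.29), with per-cell medians of 897 and 325 CPM. Pde4b, a phosphodiesterase that degrades cAMP, stood at 30.0 and 13.3 CPM (2.26-fold, 2.06 to 2.49) and the nuclear receptor gene Nr4a1 at 185 and 102 CPM (1.82-fold, 1.76 to 1.89). Crem, Nr4a3 and Ptgs2 were 1.57-fold, 1.65-fold and 1.53-fold higher in trap cells. Crtc3, the coactivator that passed the level limit, had a log2 ratio of -0.11, and Per1, also CREB-responsive, went the other way at 0.35.

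Of 6 tested genes of the keratin-rich intermediate state, 4 were at least 1.5-fold higher in trap cells (5.15% of all genes) and 0 in Stk11 cells, with a median log2 ratio of -0.84. Relative to the median gene 3 were, without Sfn. Cdkn1a, a cell cycle inhibitor gene, went the other way at 289 CPM in trap cells and 328 CPM in Stk11 cells in all matched cells, but it turned direction between the sexes, with log2 ratios of -0.21 in Y-bearing and 0.85 in Xist-bearing cells. Krt7 stood at 317 CPM in trap cells and 125 CPM in Stk11 cells (2.53-fold, 2.46 to 2.61), Krt19 at 254 and 116 CPM (2.18-fold, 2.12 to 2.26), Lgals3, the galectin-3 gene, at 208 and 99.3 CPM and Sfn, the stratifin gene, at 96.2 and 62.6 CPM. These genes were measured in cells picked for low keratins, and the 2 keratins of the rule differed between the classes as well. ATI markers were mostly below the median gene. Of 7 tested, Clic5, a chloride intracellular channel gene, was past 1.5-fold, at 34.4 CPM in trap cells and 54.5 CPM in Stk11 cells, while Ager and Aqp5 were 1.49-fold and 1.46-fold higher in trap cells, and the list median was -0.47.

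Of 15 tested matrix, integrin and laminin genes, 6 were at least 1.5-fold higher in trap cells (5.15% of all genes), 0 in Stk11 cells (1.42%) and 9 within 1.5-fold, with a median of -0.40. Relative to the median gene 3 of 15 were higher in trap cells, Fn1, Lama5 and Itgav. Fn1, fibronectin, stood at 116 CPM in trap cells and 26.1 CPM in Stk11 cells (4.43-fold, 4.16 to 4.72), against 1669 CPM in the stromal or immune marker cells. Lama5, Itgav, Col4a1, Col4a2 and Cd44 were between 1.54-fold and 1.75-fold higher. Among 14 tested TGF-beta and BMP genes, 3 were at least 1.5-fold higher in trap cells (5.15% of all genes), among them Cyr61 (1.61-fold) and the receptor gene Tgfbr2 (80.0 and 42.6 CPM), with 2 relative to the median gene, where Cyr61 no longer was, and Id3, an inhibitor of basic helix-loop-helix factors, was higher in Stk11 cells (31.0 and 48.8 CPM). The Id3 difference was found in Y-bearing cells (30.6 and 67.6 CPM) and not in Xist-bearing cells (34.2 and 34.5 CPM). Of 15 RAS-MAPK output genes, 4 were at least 1.5-fold higher in trap cells (5.15% of all genes), or 3 relative to the median gene, where Dusp6 no longer was and Dusp5 passed in favor of Stk11 cells: Etv4 at 18.6 and 7.56 CPM, the cyclin gene Ccnd1 at 312 and 160 CPM, Phlda1 at 831 and 466 CPM and the ERK phosphatase gene Dusp6 at 109 and 67.5 CPM. The related Etv5 and Spry1 had log2 ratios of 0.08 and 0.03. Of 3 Wnt genes tested, Sp5 was 1.63-fold higher in trap cells and Porcn, which acylates Wnt ligands, was 2.48-fold higher in Stk11 cells with 37.3% of its UMIs in 10 of them.

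**Figure D4:**
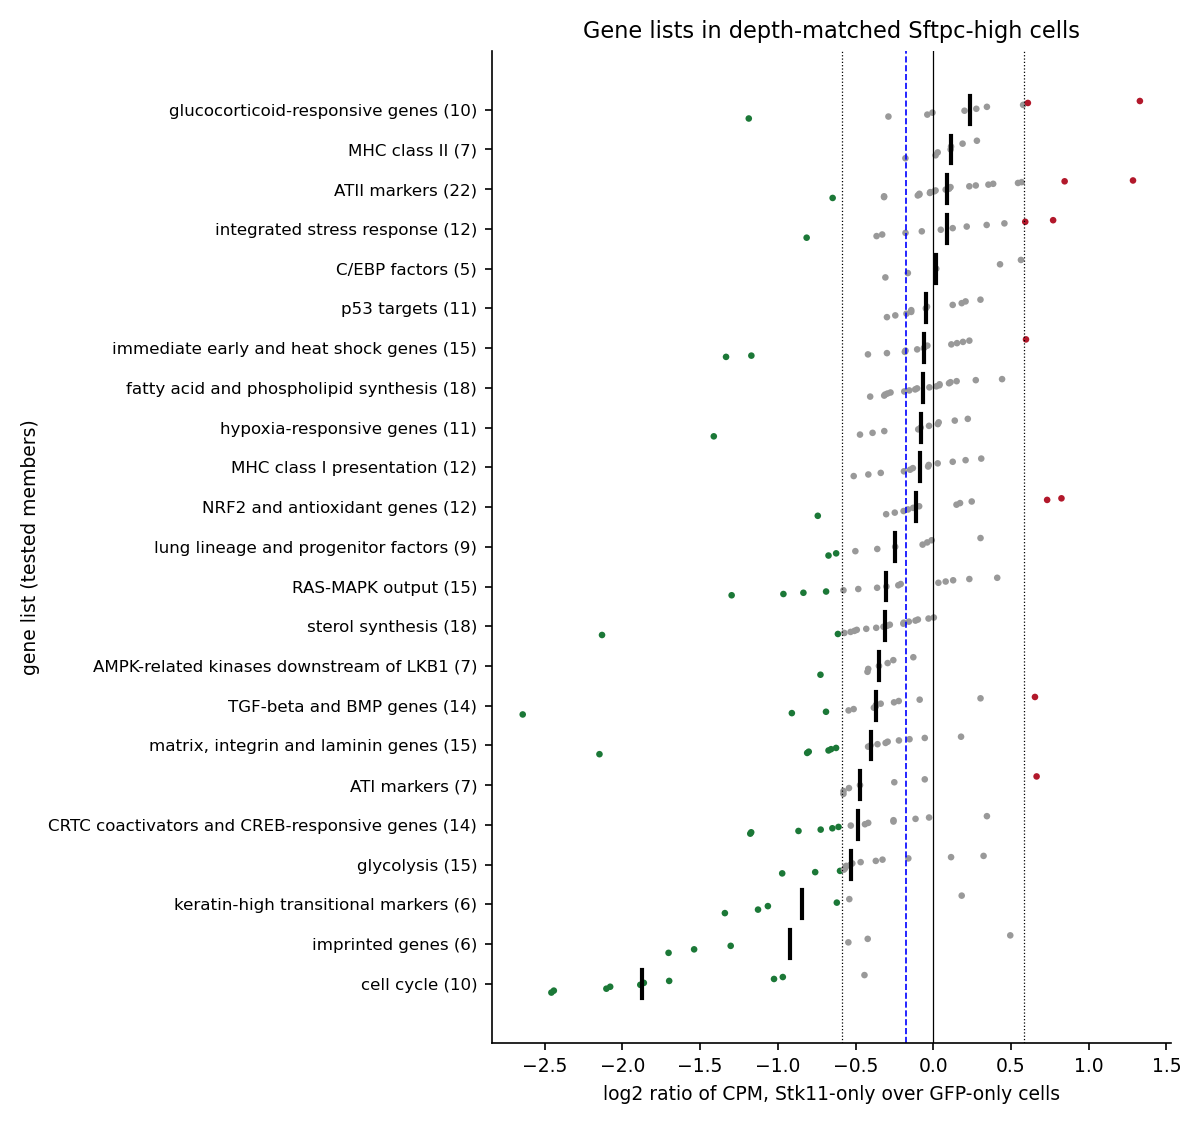
Log2 ratio of CPM, Stk11 over trap cells, for the tested members of 23 gene lists with at least 5 of them, without the ribosomal, respiratory chain, proteasome and V-ATPase families; each point is 1 gene, black bars are list medians, the dashed blue line is the median of all 7419 features (-0.18) and dotted lines mark 1.5-fold. Cell cycle, imprinted and keratin-high lists lie farthest to the left, and the glucocorticoid, MHC class II and ATII lists are among those with a median to the right of 0.

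In metabolism, a single sterol gene stood out. Pmvk, phosphomevalonate kinase, stood at 1549 CPM in trap cells and 354 CPM in Stk11 cells (4.38-fold, 4.31 to 4.46), with per-cell medians of 976 and 202 CPM. Of the other 17 tested genes of sterol synthesis, Nsdhl alone was past 1.5-fold (13.97 and 9.13 CPM), though not relative to the median gene or in Xist-bearing cells (log2 -0.01), and the list median of -0.31 lay near that of all genes. Of 15 tested glycolytic genes, 3 were at least 1.5-fold higher in trap cells (5.15% of all genes), 12 were within 1.5-fold and 12 lay below the median gene, with a list median of -0.53. Relative to the median gene only Eno1 was past 1.5-fold, 1 of 15 against 215 of 7419 genes. Eno1, enolase 1, stood at 114 and 58.3 CPM (1.96-fold, 1.87 to 2.06), Pkm, pyruvate kinase, at 248 and 146 CPM (1.69-fold, 1.64 to 1.74) and Pfkl, liver-type phosphofructokinase, at 77.2 and 50.9 CPM. Hk2, a hexokinase gene, went the other way, with a log2 ratio of 0.32. None of 18 genes of fatty acid and phospholipid synthesis was past 1.5-fold. Scd1, a fatty acid desaturase gene, stood at 3181 and 3413 CPM in all matched cells, but at 3418 and 2570 CPM in Y-bearing cells and 2771 and 4577 CPM in Xist-bearing cells. Of 11 hypoxia-responsive genes, Ankrd37 was past 1.5-fold (47.7 and 17.9 CPM) and Higd1a and Mif were 1.07-fold and 1.24-fold higher in trap cells.

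Glucocorticoid-responsive genes lay in both directions. Klf15 and Klf9, Kruppel-like factors induced by glucocorticoids, were higher in Stk11 cells, at 10.7 against 26.8 CPM (2.51-fold, 2.26 to 2.79) and 77.4 against 118 CPM (1.53-fold, 1.46 to 1.59). The Klf15 ratio ran from a log2 of 0.71 in Y-bearing to 2.43 in Xist-bearing cells, and Klf9 was under 1.5-fold in Y-bearing cells (0.51). Sgk1, a kinase induced by the same hormones, was 2.28-fold higher in trap cells (2.10 to 2.48), at 39.7 and 17.4 CPM. The list median over 10 genes was 0.24. Of 12 NRF2 and antioxidant genes, Prdx6, the peroxiredoxin that also acts as a phospholipase on surfactant lipids, stood at 321 and 568 CPM and Gstm1 at 46.5 and 77.3 CPM, both higher in Stk11 cells, whereas Gclc, the rate-limiting enzyme of glutathione synthesis, stood at 496 and 296 CPM (log2 -0.40 in Y-bearing cells, under 1.5-fold, and -1.29 in Xist-bearing cells). In the integrated stress response list, Asns and Trib3 were 1.71-fold and 1.51-fold higher in Stk11 cells and Ddit4, an inhibitor of mTORC1, 1.76-fold higher in trap cells. In Y-bearing cells Asns and Trib3 both had a log2 ratio of 0.22, under 1.5-fold, and in Xist-bearing cells 1.44 and 1.18. Among immediate early and heat shock genes, Zfp36 was 1.51-fold higher in Stk11 cells, and Hspa1a and Hspa1b were 2.52-fold and 2.25-fold higher in trap cells. For Hspa1a and Hspa1b, log2 ratios were -1.02 and -0.86 in Y-bearing and -2.34 and -2.33 in Xist-bearing cells. The last pair are near-identical copies whose reads can be shared.

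Cell cycle genes had the lowest list median, -1.87, with 9 of 10 tested at least 1.5-fold higher in trap cells (5.15% of all genes). The list had 24 members, and the rest did not reach the level limit. Of the 9, all but Tyms were under 10 CPM in Stk11 cells and passed the limit through their level in trap cells. The count and the list median were therefore partly set by that limit. Top2a, a topoisomerase, stood at 26.6 CPM in trap cells and 4.85 CPM in Stk11 cells, Ube2c, a mitotic ubiquitin-conjugating enzyme, at 45.0 and 8.29 CPM and Mki67 at 25.03 and 7.71 CPM. The difference depended on the sex set: log2 ratios were -1.07 in Y-bearing and -2.72 in Xist-bearing cells for Top2a, and -0.75 and -2.13 for Mki67. These levels came from few cells: 10 trap cells held 33.3% of the Top2a UMIs of their class and 10 Stk11 cells 86.7%. At least 3 UMIs over 10 proliferation genes were found in 122 trap cells (7.12%) and 24 Stk11 cells (1.40%), and after thinning to 5000 UMIs in 3.63% (2.79 to 4.63) and 0.995% (0.581 to 1.59). Leaving out cells with at least 3 such UMIs, an alternative added after the data were seen, 349 genes were higher in trap cells and 108 in Stk11 cells, and 335 of the 382 and 94 of the 105 genes remained past 1.5-fold. Ube2c did not (log2 -0.19), but it is 1 of the 10 genes whose UMIs chose the cells left out, as are Top2a and Mki67.

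The imprinted genes higher in trap cells lie in 1 stretch of chromosome 12 (GENCODE M21, GRCm38). Meg3 (chr12:109541001-109571726), a long noncoding RNA, stood at 4062 CPM in trap cells and 1646 CPM in Stk11 cells (2.47-fold, 2.45 to 2.49), with per-cell medians of 3618 and 1451 CPM. Its neighbour Mirg (chr12:109729764-109749460), a noncoding host of microRNAs, stood at 58.8 and 18.1 CPM. Dlk1 (chr12:109452823-109463336), a membrane ligand related to Notch ligands and transcribed from the other parental chromosome, stood at 821 and 283 CPM (2.91-fold, 2.85 to 2.96). Dlk1 was absent from most cells of both classes: 485 of 1714 trap cells and 323 of 1714 Stk11 cells held a UMI, and the highest held 994. Of the other 3 tested imprinted genes, none was past 1.5-fold, with Grb10 at a log2 ratio of 0.50.

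Abundant housekeeping lists were near the median gene. None of 77 cytosolic ribosomal protein genes or 37 proteasome subunits was past 1.5-fold, but 75 of the 77 lay above the median of all genes (list median 0.10) and 33 of the 37 below it (list median -0.34). Of 16 V-ATPase subunits, Atp6v1g3 was past 1.5-fold, at 43.6 CPM in trap cells and 26.7 CPM in Stk11 cells, but not relative to the median gene. Neither MHC class II (0 of 7) nor MHC class I presentation genes (0 of 12) nor p53 targets (0 of 11) had a member past 1.5-fold. Cd74, the invariant chain, stood at 5944 and 6006 CPM. Relative to the median gene, the counts of other lists changed by 1 gene each: Glul, Pcyt1a, Mthfd2, Grb10 and Cox6b2 passed 1.5-fold in favor of Stk11 cells, and Gclc and Sp5 no longer passed in favor of trap cells.

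The labels list males and females in both groups, so the comparison was repeated within cells of like sex-linked transcripts, which came from at most 4 male and 2 female mice. Among 871 matched pairs of cells with Y-linked UMIs and no Xist, 392 genes were higher in trap cells and 124 in Stk11 cells, and among 613 pairs with Xist and no Y-linked UMIs, 607 and 177. Of the 382 genes higher in trap cells, 379 kept their direction in both sets and 219 were past 1.5-fold in both, and of the 105 higher in Stk11 cells, 96 and 52. The genes were picked in cells of the same members, so a kept direction is not independent support. Apoe had log2 ratios of 3.51 in Y-bearing and 2.50 in Xist-bearing cells, Cox6a2 1.99 and 3.05, Nupr1 1.48 and 2.15, Hc 1.41 and 1.10, Tgfbi -2.26 and -3.66, Ptprn -3.50 and -2.43, Pmvk -2.57 and -1.33 and Areg -1.02 and -1.31. These directions held in both sets while the sizes differed. Of 86 named genes past 1.5-fold, 13 were under it in Y-bearing cells: Nr4a3, Egfl6, Sfn, Sox4, Sox9, Klf9, Pfkl, Dusp6, Cd44, Asns, Trib3, Gclc and Zfp36. In Xist-bearing cells 8 of 85 were, namely Basp1, Lyz2, Nsdhl, Col4a2, Porcn, Cyr61, Id3 and Mgp.

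Of the named genes past 1.5-fold, those that turned direction between the sets were Basp1, Mgp, Porcn and Sox9. Basp1 stood at 10.1 CPM in trap and 86.0 CPM in Stk11 cells with Y-linked UMIs, but at 13.1 and 1.54 CPM in those with Xist. Porcn stood at 5.61 and 33.9 CPM, and at 5.94 and 3.50 CPM. For Sox9 the levels were 13.4 and 15.2 CPM in Y-bearing cells and 22.1 and 6.17 CPM in Xist-bearing cells. Gkn2, named after its values were seen, had a log2 ratio of 3.40 in Y-bearing and -6.03 in Xist-bearing cells, and 10 cells held 83.6% of its UMIs in trap cells and 86.5% in Stk11 cells. In all, 12 of the 487 genes past 1.5-fold had opposite directions in the sets.

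**Figure D5:**
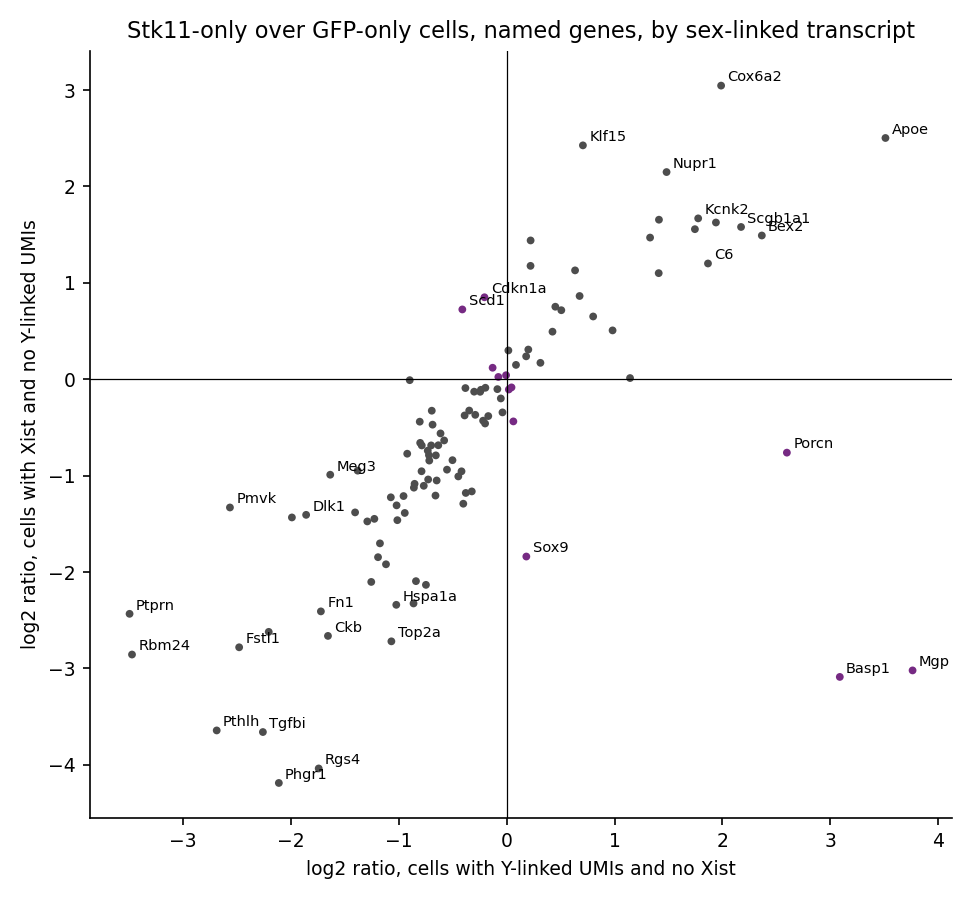
Log2 ratio of CPM, Stk11 over trap cells, of each named gene in cells with Y-linked UMIs and no Xist (x axis) and in cells with Xist and no Y-linked UMIs (y axis), without the genes of the rule, sex-linked genes and Gzme, which was at 0 in the Xist-bearing Stk11 cells. Points with opposite signs are purple; Basp1, Mgp and Porcn lie at the lower right, while Apoe, Cox6a2, Tgfbi and Ptprn have the same sign on both axes.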

How the data were processed

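Sorted cells of 6 mice were measured by droplet single-cell RNA-seq. The deposited values were counts: whole UMI counts per gene and cell, for which the authors aligned reads to mm10 and counted with Cell Ranger 3.0.2 (file header, the methods and the submitters' processing notes). The annotation release is not given in the sources used here. No column belonged to another series. The matrix names no mouse for a cell, so cells were never assigned to mice, and no test was run. The members and gene lists were chosen with earlier results of these data known.

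Trap and Stk11 cells were matched in bins of 0.02 log10 UMI total (seed 42). CPM were gene sums scaled to 1000000 UMIs in a class, so deep cells weigh more. Ratios have exact conditional binomial 95% intervals, levels exact Poisson and shares Clopper-Pearson intervals, and a count of 0 was given the limit of 3 counts. UMIs of 1 cell are not independent of its state, so these intervals are narrow. Features averaging at least 10 CPM over both classes were compared, so a gene under 10 CPM in 1 class could pass through the other. The limit for naming was 1.5-fold. The text names the genes of the rule, members of each of 36 lists past 1.5-fold (or the 2 highest members where fewer passed), the 12 largest ratios in each direction and sex-linked genes; other list members given with a log2 ratio were chosen after their values were seen. An allele that all the mice shared and 1 gene that the rule would name are not reported here. Of the list symbols, 1 was not found among the features. Where IDs shared a symbol, the one with more UMIs kept it. Stromal or immune marker cells had at least 20 UMIs of endothelial, fibroblast or immune markers per 10000. No doublet caller was run; leaving out the 5% deepest members was an alternative, as were other matching, scaling, filters, depth classes, thinning and sex-linked subsets. Positions of 30934 of 31055 features came from GENCODE M21. The ratio script was tested on simulated data. Sums and intervals were made in scipy 1.17.1 and numpy 2.4.6 under Python 3.11.15, tables in pandas 2.3.3 and plots in matplotlib 3.10.9.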

Additional observations from a re-analysis of the deposited data

How the results depend on the processing

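The 382 genes higher in trap cells and 105 higher in Stk11 cells stayed within 1.5 times of these numbers under the other alternatives run, but became 215 and 199 relative to the median gene, 581 and 166 with a minimum of 5 CPM, 187 and 56 with a minimum of 30 CPM (more or fewer genes tested), and 607 and 177 in Xist-bearing cells; in the shallowest of the 3 depth classes 614 were higher in trap cells. The share of members with GFP only (24.98%) and the share of members with Stk11 only (33.7%) became 27.6% and 35.04% at no more than 10% mitochondrial UMIs, 23.3% and 37.8% with at least 1000 Sftpc UMIs per 10000, 8.96% and 11.2% after thinning, and 12.7% and 14.7% with at least 2 UMIs of the transcript. Of the named genes past 1.5-fold, Basp1 (log2 ratio -3.09), Porcn (-0.76) and Mgp (-3.02) reversed in Xist-bearing cells, Sox9 (0.18) in Y-bearing cells and Mgp (-0.16) in the shallowest of the 3 depth classes. For Mgp, 1 cell set the ratio over all matched cells. In Xist-bearing cells Mgp stood at 4.33 CPM in trap cells and 0.534 CPM in Stk11 cells. The cause of these reversals was not tested. Of 86 named genes past 1.5-fold, 10, 9 and 9 were under it in the 3 depth classes, 7 with at least 2 UMIs of the transcript and 5 without cycling cells. Over all alternatives run, at least 96 of the 105 and 379 of the 382 genes kept their direction, but the alternatives re-used the members in which these genes were picked. No paired analysis was possible because the matrix carries no mouse of a cell and no result comes from a test. Leaving out each mouse in turn could not be run for the same reason. With 1 pooled sample, depth limits the genes to those near 10 CPM and above, and the counting intervals do not cover differences between mice.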
